A study of Homo sapiens with 8 samples.

Results

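Mitotic cells were picked out of cultures of HMLE cells, an immortalised line of human mammary epithelial cells, by the transcripts of 5 genes. A cell was called mitotic when CDC20, PLK1, CCNB1, CCNB2 and AURKA together gave at least 20 of every 10000 gene UMIs (unique molecular identifiers, 1 per captured transcript molecule), and non-mitotic when they gave at most 2. The rule was applied to the 19818 cells with at least 1000 genes, at most 15% mitochondrial UMIs and at least 10000 gene UMIs, out of 26247 cell barcodes in 4 mRNA libraries. It found 3584 mitotic cells, 18.08% of the cells it was applied to (exact 95% binomial interval 17.55 to 18.63%, counting error only), 1568 non-mitotic cells and 14666 cells between the thresholds. Libraries 1 to 4 held 1100, 866, 893 and 725 mitotic cells, which were 16.64, 19.41, 18.18 and 18.9% of their cells. The cells were chosen by their counts of the 5 genes, so levels of those genes describe the choice. Tests were made on the other genes, and on a gate gene only where cells were chosen without it.

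The study used single-cell 5' sequencing of HMLE cells to look for intermediate states in the epithelial-to-mesenchymal transition (EMT) that TGF-β induces, and used pyridostatin, a small molecule that binds the folded guanine-rich DNA structures called G-quadruplexes, to ask what part these play. All cells are the HMLE line. There were 12 cultures, each marked with its own short barcoded oligonucleotide (SBO01 to SBO12), pooled, and read from 4 mRNA libraries with 4 matching barcode libraries. Libraries 1 and 2 carried barcodes SBO01 to SBO06, called the first pool here, and libraries 3 and 4 the other 6, called the second pool. The labels do not say which barcode received TGF-β or pyridostatin, for how long or at what dose, so no treated and untreated cells were compared. Whether 2 libraries with the same barcodes are 2 loads of 1 pool is not stated, and nothing says that any culture was repeated. The p-values therefore measure how far the difference between classes varied over these libraries, or over their barcode groups where sums were kept apart by group. That spread may be technical.

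A dividing cell passes from G1 through S phase, in which DNA is replicated, and G2 into mitosis. Entry into mitosis is driven by CDK1 bound to cyclin A or cyclin B and by the kinases PLK1 and AURKA, and exit follows when the anaphase-promoting complex, an E3 ubiquitin ligase, is activated by CDC20 and marks cyclin B and securin for destruction. Many genes of this machinery are transcribed in G2 and mitosis under the FOXM1 and B-MYB complexes, and are held off in G1 by the DREAM complex, which reads a short promoter element called the cell cycle genes homology region (CHR). Transcripts high in mitosis are therefore also present in late G2, and a gate on RNA cannot divide the 2 phases.

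The promoters of the genes that define these cells are shown because the CHR and the CCAAT box, the element read by NF-Y, are the textbook features of genes of this phase. Each sequence is the 120 bases just before the RefSeq transcription start (GRCh38.p14), written 5′ to 3′ on the strand of the gene, with CCAAT and TTTGAA in capitals, as ATTGG and TTCAAA where they lie on the other strand. The stretches are chr1:43358861-43358980 (plus strand) for CDC20, chr16:23678769-23678888 (plus) for PLK1, chr5:69167030-69167149 (plus) for CCNB1, chr15:59105026-59105145 (plus) for CCNB2, chr5:138178992-138179111 (plus) for KIF20A and chr15:64825648-64825767 (minus) for PIF1. AURKA was not matched. KIF20A and PIF1 are added because they showed the 2 largest rises in the comparison described further on.
CDC20: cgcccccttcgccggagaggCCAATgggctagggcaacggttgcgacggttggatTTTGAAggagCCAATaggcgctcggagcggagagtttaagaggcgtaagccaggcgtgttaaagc
PLK1: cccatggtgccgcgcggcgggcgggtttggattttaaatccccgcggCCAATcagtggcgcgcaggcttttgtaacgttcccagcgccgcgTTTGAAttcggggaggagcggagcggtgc
CCNB1: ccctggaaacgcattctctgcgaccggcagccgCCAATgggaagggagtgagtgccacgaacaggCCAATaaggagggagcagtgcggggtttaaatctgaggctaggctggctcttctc
CCNB2: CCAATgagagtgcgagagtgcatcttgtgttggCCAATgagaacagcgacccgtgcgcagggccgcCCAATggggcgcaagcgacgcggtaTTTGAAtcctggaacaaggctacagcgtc
KIF20A: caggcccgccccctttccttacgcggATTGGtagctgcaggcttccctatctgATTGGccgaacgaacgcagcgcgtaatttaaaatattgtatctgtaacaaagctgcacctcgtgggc
PIF1: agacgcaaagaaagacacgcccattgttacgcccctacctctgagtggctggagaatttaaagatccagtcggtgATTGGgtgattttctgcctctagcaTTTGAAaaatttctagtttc
PLK1, CCNB2 and CDC20 each carried TTTGAA, beginning 29, 29 and 65 bases before the start, together with 1 to 3 CCAAT boxes within the printed stretch. CCNB1 and KIF20A had 2 CCAAT boxes each and neither TTTGAA nor TTCGAA within 250 bases of the start. PIF1 had TTTGAA 20 bases before its start and CCAAT on the other strand.

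CCAAT was searched for on both strands in the 250 bases before the start of 27305 RefSeq genes, as was the CHR in its usual form TTTGAA and in the variant form TTCGAA. A promoter with both forms was counted once. TTTGAA or TTCGAA was present in 14.6% of all promoters, CCAAT in 33.0%, and both kinds of element in 5.24%. Of 107 genes in 7 lists of mitotic machinery, 91 were matched, and TTTGAA or TTCGAA was in 42 of them (46.2%), CCAAT in 67.0% and both in 34 (37.4%). Among 27 matched genes of S phase and replication the same shares were 7.41% for TTTGAA or TTCGAA and 59.3% for CCAAT. Of the 12 genes with the largest rises, 11 were matched, with CCAAT in 90.9% and TTTGAA or TTCGAA in 7, and of the 12 with the largest falls 7 were matched, with CCAAT in 42.9% and TTTGAA or TTCGAA in 0. A match is a run of letters and not a shown binding site, and promoters were not tested.

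CDC20 (chr1:43358955-43363203), the activator of the anaphase-promoting complex, supplied 29.4% of the gate's UMIs in mitotic cells. Its level in CPM, the unit that scales a gene's UMIs to the total of its library and class, was 782, 815, 782 and 816 in mitotic cells of libraries 1 to 4 and 40.4, 42.1, 43.8 and 46.6 in non-mitotic cells. CCNB1 (chr5:69167010-69178245), cyclin B1, supplied 26.6%, with 773, 777, 679 and 671 CPM in mitotic cells and 29.1, 27.4, 26.8 and 30.2 in non-mitotic cells. AURKA (chr20:56369389-56392337), the kinase of the centrosome and spindle pole, supplied 16.2%, with 435, 432, 460 and 428 CPM in mitotic cells and 12.9 to 16.5 in non-mitotic cells. PLK1 (chr16:23677656-23690367), the polo-like kinase of mitotic entry, supplied 15.7%, with 427, 455, 415 and 415 CPM against 8.02 to 10.3. CCNB2 (chr15:59105078-59125045), cyclin B2, supplied 12.1%, with 331, 334, 328 and 321 CPM against 23.9 to 28.1. These gene spans are those of GENCODE 29 on GRCh38. The values are set by the gate, which is why no test is given for them.

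Each of the 5 genes was then left out of the gate in turn, and cells were called mitotic at 16 or more UMIs of the other 4 per 10000. PLK1, unused in the choice, was at 396 ± 18.8 CPM (SD, n = 4 libraries) in mitotic cells and 17.1 ± 3.04 CPM in non-mitotic cells, a log2 difference of 4.58 (SE 0.07, adjusted p = 8.83e-18, edgeR quasi-likelihood test with Benjamini-Hochberg adjustment over all genes). AURKA was 14.28-fold higher (391 ± 12.5 against 28.8 ± 2.90 CPM), and CCNB1 12.69-fold higher (709.9 ± 63.8 against 58.1 ± 4.12 CPM). CDC20 and CCNB2 were 5.71-fold and 5.65-fold higher. All 5 were higher in each of the 4 libraries, and the largest adjusted p among them was 9.12e-17 in edgeR. CDC20 kept 139 ± 17.1 CPM in the cells with at most 2 UMIs per 10000 of the other 4 genes. That limit stayed at 2 whichever gene was left out, so the non-mitotic cells differ between the 5 fits. In library 1 they numbered 1317 with CDC20 left out and 702 with PLK1 left out. The folds of the 5 genes are therefore not on a like footing.

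The threshold fell on a slope and not in a gap. The 738 cells with a gate sum of 18 to 20 per 10000 had 596 CPM of CDC20 and 306 of PLK1, and the 717 cells at 20 to 22 had 668 and 337 CPM (means of 4 libraries). Outside the gate, UBE2C was at 733 and 790 CPM, KIF20A at 84.2 and 99.8 CPM, and PCNA at 158 and 147 CPM. The chemokine gene CCL5 was at 35.2, 3.82, 10.45 and 14.2 CPM just outside in libraries 1 to 4, and at 4.77, 1.39, 4.29 and 1.43 CPM just inside.

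Mitotic cells held more transcripts than non-mitotic cells. Their median was 24180, 27640, 29640 and 37800 gene UMIs in libraries 1 to 4, against 18870, 22330, 25550 and 31940 in non-mitotic cells, higher in 4 of 4 libraries (mean difference 5145 ± 750, SD). Gene UMIs enter the gate as its denominator, so this difference is not independent of the rule. Cells between the thresholds had slightly more, 24820, 29730, 31380 and 39910. In cells thinned to 10000 UMIs, mitotic cells had 46.5 ± 2.42 more genes than non-mitotic cells. Mitotic cells also carried several sample barcodes more often, in 24.7 ± 2.59% against 19.2 ± 2.58% of cells, a difference of 5.55 ± 1.69 percentage points that was positive in 4 of 4 libraries. Cells between the thresholds carried several barcodes more often still in libraries 1 and 3 (34.25 and 22.83%, against 26.82 and 21.16% of mitotic cells) and less often in libraries 2 and 4 (25.4 and 21.04%, against 26.44 and 24.41%). The median mitochondrial share was 1.63 ± 0.17% in mitotic and 1.49 ± 0.07% in non-mitotic cells, higher in 2 of 4 libraries. With 4 libraries the exact two-sided sign-flip test cannot go below p = 0.13, which it reached for the share with several barcodes. A droplet with 2 cells has a gate sum between those of its cells. That share is therefore not independent of the rule, and no conclusion is drawn from its test. UMIs and genes per cell enter the rule that chose the cells, so no test is given for them. No doublets were removed from the main comparison, which keeps the 5143 cells with several barcodes, and pairs of cells from 1 culture cannot be seen by barcode. In a fit on cells with 1 barcode 3236 genes were higher and 3500 lower. Cell barcodes shared between libraries numbered 899, of which 4 were mitotic in 2 or more libraries. The libraries held 133722026 to 172043912 gene UMIs in the cells to which the gate was applied.

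HMLE is an epithelial line, and its defining genes were present in both classes, with KRT19 at 1073 ± 277 CPM and CDH1 at 47.2 ± 4.07 CPM in mitotic cells. One barcode group stood apart: in SBO05, KRT19 was at 134 CPM and CDH1 at 5.64 CPM in mitotic cells, with VIM at 3223 CPM. SBO05 made up 36.7% of the mitotic and 39.96% of the non-mitotic singlets of its pool, against 26.4% of the cells between. Markers of other cell types were low. Of 8 leukocyte markers, 6 had a mean under 1 CPM, with CD3E and NKG7 at 0, and the list summed to 12.6 to 25.2 CPM in mitotic and 25.6 to 37.6 CPM in non-mitotic cells, most of it CD68. The 7 endothelial markers summed to 1.02 to 1.38 and 1.90 to 2.84 CPM. The 8 stromal fibroblast markers summed to 8.65 to 41.9 CPM in mitotic and 11.5 to 110 CPM in non-mitotic cells, with DPT at 0.

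Mitotic cells were then compared with non-mitotic cells of the same library in 14414 genes outside the gate. UMIs were summed per library and class, and edgeR's quasi-likelihood test was run with library as a block at an adjusted p under 0.05. In mitotic cells 4277 genes were higher (29.7% of those tested) and 4279 lower (29.7%), and 7709 of these 8556 had the same sign in all 4 libraries. Higher by at least 0.5 on the log2 scale were 897 genes (6.22%), and lower by as much were 2409 (16.7%). The common biological coefficient of variation left after the library block was 4.19%, so small differences passed. The counts of genes per list below are to be read against these shares. The median over all genes tested was -0.02 on the log2 scale.

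**Figure D1:**
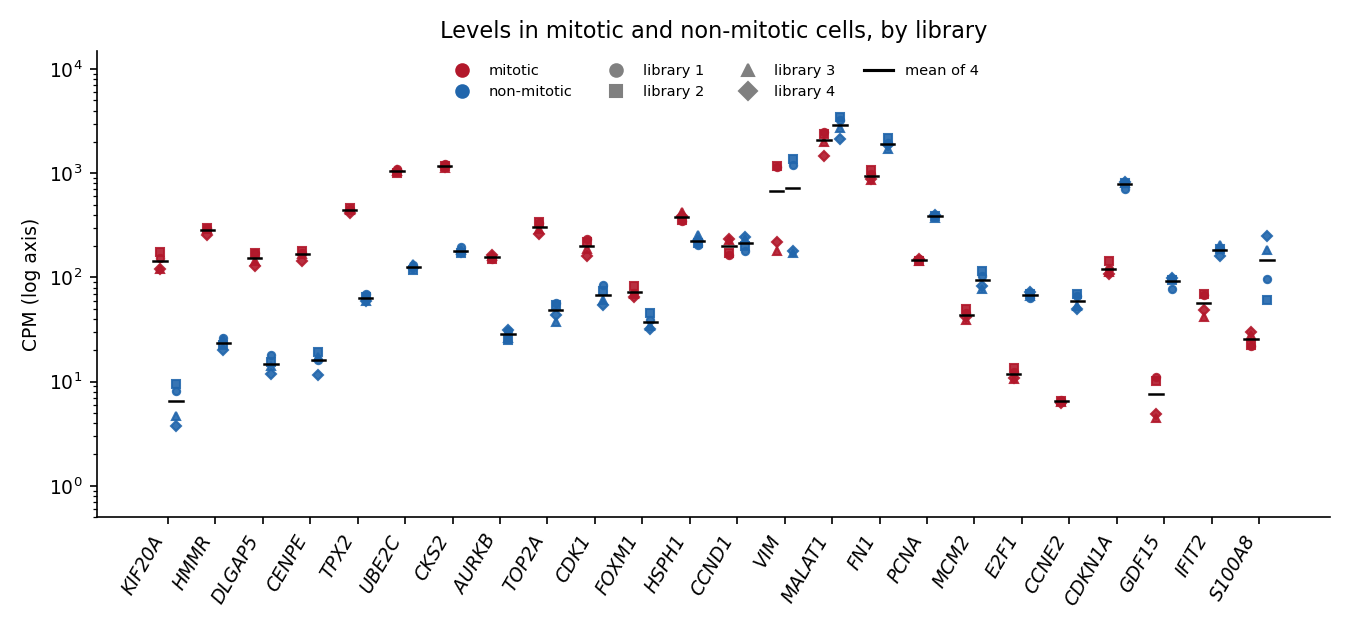
Levels in CPM (log axis) of 24 genes in mitotic (red) and non-mitotic (blue) cells, with 1 point per library and a line at the mean of 4. Genes of the mitotic machinery sat apart without overlap, CCND1 overlapped, and VIM separated by pool and not by class, at 181 to 218 CPM in libraries 3 and 4 and 1146 to 1172 CPM in libraries 1 and 2 in mitotic cells.

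Spindle genes rose together. All 25 members tested of the list of spindle proteins and kinesins were higher in mitotic cells, with a median log2 difference of 2.15, and 24 of them by at least 0.5. KIF20A, a kinesin of the central spindle needed for cytokinesis, had the largest rise of any gene with a mean of at least 20 CPM. It was at 153, 176, 122 and 121 CPM in mitotic cells of libraries 1 to 4 and at 8.19, 9.53, 4.68 and 3.75 CPM in non-mitotic cells, so the lowest mitotic value was above every non-mitotic value. The log2 difference was 4.49 (SE 0.08, adjusted p = 2.86e-16, edgeR), or 22.4-fold. HMMR, a microtubule-binding protein of the spindle pole, was at 301, 297, 292 and 253 CPM against 20.2 to 26.0 (12.7-fold). DLGAP5, which stabilises kinetochore fibres, was 10.9-fold higher, and ASPM, a spindle pole protein, had a log2 difference of 3.21. TPX2, which activates AURKA on the spindle, was at 445 ± 19.3 CPM in mitotic and 63.3 ± 4.46 CPM in non-mitotic cells (7.36-fold). KIF2C, a kinesin that takes microtubules apart, had a log2 difference of 2.93, and KIF14, a kinesin of the midbody, one of 3.05. The smallest rise was that of STMN1, which binds free tubulin, at 0.39.

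Kinetochore and passenger genes followed. Of 18 kinetochore and centromere genes, 17 were higher and 1 lower, with a median of 1.29. CENPE, the kinesin that carries chromosomes to the metaphase plate, was at 173, 179, 168 and 145 CPM in mitotic cells and at 16.3, 19.1, 17.4 and 11.6 CPM in non-mitotic cells, a log2 difference of 3.43 (SE 0.06, adjusted p = 1.4e-16, edgeR). CENPA, the histone H3 variant of the centromere, rose by 3.26, CENPF by 3.05 and NDC80, of the complex that grips microtubules, by 2.60. CENPU, of the inner kinetochore, was the member that fell, by 0.29. The 7 genes of the chromosomal passenger complex and the shugoshins were all higher, with a median of 2.30. AURKB, the kinase of that complex, was at 149, 152, 161 and 164 CPM against 25.4 to 31.7 (5.76-fold), CDCA8 (borealin) had a log2 difference of 2.80, and BIRC5 (survivin) one of 1.72. CDCA5 (sororin), which protects cohesion, rose by 0.15, and was the 1 member that rose by less than 0.5.

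Regulators of entry and exit were less uniform. Of 18 mitotic kinases and entry regulators, 15 were higher and 2 lower, with a median of 1.88. CDK1 was at 235, 221, 186 and 162 CPM in mitotic and 84.7, 74.6, 60.5 and 54.8 CPM in non-mitotic cells, a 3.07-fold difference, and CCNA2, cyclin A2, was 4.60-fold higher. CKS2, the small subunit bound to CDK1, was 6.82-fold higher, and NEK2, a centrosome kinase, had a log2 difference of 2.72. PKMYT1, the membrane-bound kinase that inhibits CDK1, fell by 0.30, and MASTL, the Greatwall kinase, fell by 0.26, while WEE1, which also inhibits CDK1, rose by 0.26. Of 17 genes of the anaphase-promoting complex and the spindle checkpoint, 14 were higher and 1 lower, with a median of 0.56. The ubiquitin-conjugating enzymes that serve this ligase led them. UBE2C was at 1094, 1001, 1059 and 1048 CPM against 117 to 134 (8.68-fold), and UBE2S at 1059, 1098, 1023 and 1105 CPM against 195 to 209 (5.52-fold). The core subunits moved less, with CDC27 at 1.13, CDC16 at 0.48 and ANAPC5 at 0.34 on the log2 scale, while ANAPC1 and ANAPC11 did not pass the test (0.10 and 0.00). PTTG1, securin, was 3.30-fold higher. FBXO5 (EMI1), an inhibitor of the ligase that is itself destroyed in early mitosis, fell by 0.54.

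Genes of cytokinesis and of chromosome structure also rose. All 8 members of the cytokinesis list were higher, with a median of 2.21, ARL6IP1 (2.66) among them. Whether each member acts in cytokinesis was not tested. PSRC1, a microtubule-associated protein, was at 71.2, 78.6, 60.02 and 68.1 CPM against 2.46 to 6.88 (15.1-fold), KIF23 was 6.22-fold and RACGAP1, its partner in the central spindle, had a log2 difference of 2.40. Of 14 genes of condensin and chromosome structure 13 were higher and 0 lower, with a median of 1.12. TOP2A, the topoisomerase that untangles sister chromatids, was at 336, 342, 293 and 260 CPM in mitotic cells and 37.4 to 57.1 CPM in non-mitotic cells (6.68-fold). MKI67, which coats mitotic chromosomes, had a log2 difference of 1.89. NCAPD2 and NCAPG, subunits of condensin I, had log2 differences of 1.69 and 2.01, and NCAPD3, of condensin II, did not pass the test (0.08, adjusted p = 0.193, edgeR). DEPDC1, outside these lists, was 13.2-fold higher.

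Of 15 G2/M transcription factors, 6 were higher and 4 lower, with a median of 0.08, against 29.7% of all genes in each direction. FOXM1, the forkhead factor of G2, was at 71.3, 83.6, 69.8 and 64.9 CPM in mitotic and 39.2, 45.3, 34.4 and 32.3 CPM in non-mitotic cells, a log2 difference of 1.00. E2F4, a DREAM subunit, rose by 0.57, and RBL1 (p107), a pocket protein of that complex, fell by 0.62. The repressors E2F7 and E2F8, which act on S phase genes, fell by 1.30 and 1.36. MYBL2 (B-MYB) did not pass the test (0.08).

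**Figure D2:**
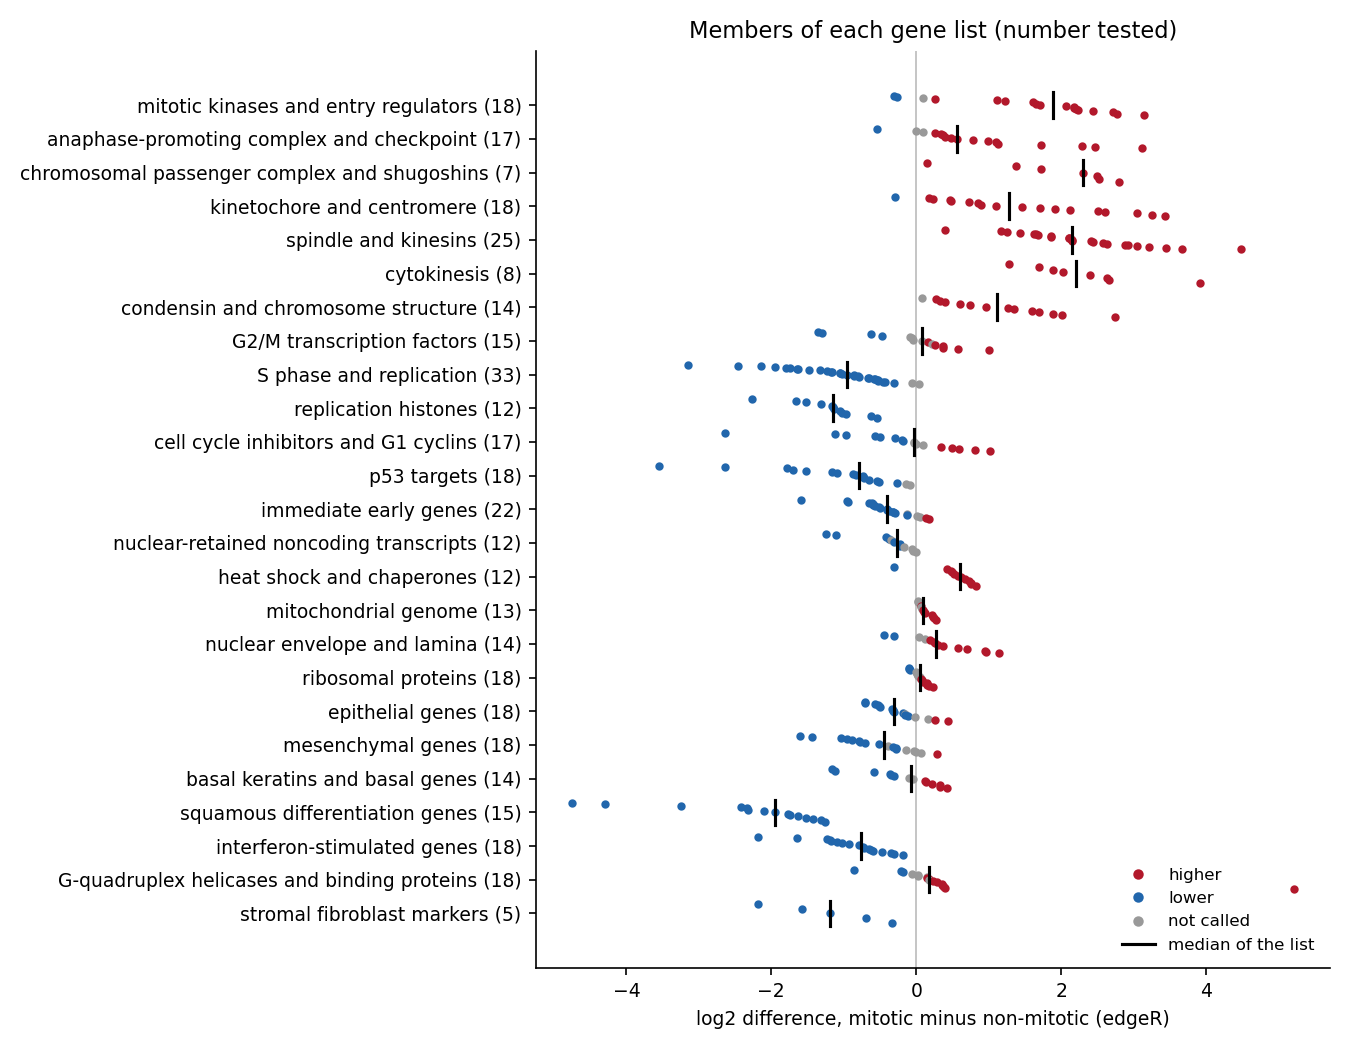
Log2 difference between mitotic and non-mitotic cells (edgeR, horizontal axis) of every tested member of the 25 gene lists with at least 5 tested genes, with 1 point per gene, coloured by whether it passed as higher or lower, and a line at each list's median. The 7 lists of mitotic machinery have medians between 0.56 and 2.30, S phase, replication histone, squamous and interferon lists lie below 0, and 1 gene of the G-quadruplex list, PIF1, stands at 5.21.

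Genes of S phase and replication were lower in mitotic cells. Of 33 genes of S phase and replication, 0 were higher and 31 lower, with a median of -0.96. CCNE2, cyclin E2, which starts replication with CDK2, was at 6.67, 6.53, 6.32 and 6.30 CPM in mitotic and 67.1, 69.4, 53.2 and 50 CPM in non-mitotic cells, 8.84-fold lower (log2 difference -3.14, SE 0.07, adjusted p = 4.41e-15, edgeR). E2F1, the factor that switches on S phase genes, was 5.48-fold lower, and CCNE1 fell by 2.14 on the log2 scale. PCNA, the sliding clamp of the polymerase, was at 145 to 149.7 CPM in mitotic and 372 to 394 CPM in non-mitotic cells (2.51-fold lower). The helicase subunits MCM2 and MCM6 fell by 1.03 and 1.74, UNG, which removes uracil from DNA, by 1.94 and DTL, which marks CDT1 for destruction, by 1.80. RRM1 and RRM2, the subunits of ribonucleotide reductase, were the 2 members that did not pass, at 0.03 and -0.05. All 12 histone genes tested of the list of replication histones were lower, with a median of -1.14. HIST1H1A, a linker histone gene, was at 20.3, 17.3, 13.03 and 8.75 CPM against 82.1, 101, 67.5 and 47.8 CPM (4.81-fold lower), and HIST1H4C was 2.49-fold lower. Many histone genes closely resemble others of their class, so their single values can depend on how reads were assigned.

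Inhibitors of the cell cycle and G1 cyclins moved in both directions, with 5 of 17 higher, 8 lower and a median of -0.04. CDKN1A (p21), which stops CDK2 downstream of p53, was at 121, 144, 112 and 108 CPM in mitotic cells and at 705, 802, 810 and 831 CPM in non-mitotic cells, 6.21-fold lower (log2 difference -2.63, SE 0.06, adjusted p = 4.42e-15, edgeR). CDKN1B (p27), of the same family, moved the other way: it was at 40.8, 42.2, 31.1 and 29.7 CPM against 23.5, 27.3, 17.9 and 17.2 CPM, 1.76-fold higher. CDKN2C (p18) rose by 0.59 in this fit, but library pairs differed in level, and its adjusted p was 0.304 in edgeR without the library block. BTG2, an antiproliferative p53 target, fell by 1.12. CCND1, cyclin D1, did not pass the test (-0.04, adjusted p = 0.398, edgeR). MYC was 0.13 higher (adjusted p = 0.0326, edgeR) and at -0.38 with the gate at 30 per 10000 (adjusted p = 0.000112, edgeR). Of 18 p53 targets, 0 were higher and 16 lower, with a median of -0.78. GDF15, a secreted stress factor, was at 10.97, 10.1, 4.49 and 4.87 CPM in mitotic and 77.9 to 99.9 CPM in non-mitotic cells (11.7-fold lower), and MDM2, the ligase that destroys p53, was 3.25-fold lower.

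Levels over the range of the gate show where these differences arose, as a description with no test. The 5 genes were summed per cell, and cells were divided at 2, 5, 10, 20, 30 and 40 UMIs per 10000, which gave 1568, 4558, 5120, 4988, 2549, 814 and 221 cells. KIF20A was higher at every step, from 6.54 ± 2.76 CPM (SD, n = 4 libraries) at most 2 to 26.5 at 5 to 10, 119 at 20 to 30 and 286 ± 37.4 CPM at 40 or more. CDKN1A was different: it dropped from 787 ± 56.3 to 204 ± 26.6 CPM between the lowest bin and the next, then ran from 164 to 116 CPM up to 20 to 30. GDF15 went from 92.9 to 17.9 CPM in that first step, SPRR1B, a cornified envelope gene, from 38.05 to 8.70 CPM and RRAD, a small GTPase, from 47.8 to 14.8 CPM. Cells with almost no gate transcripts differed from the rest in these genes. CCNE2 and E2F1 declined step by step, CCNE2 from 59.9 to 51.2, 34.2, 18.1 and 7.16 CPM over the first 5 bins. HIST1H4C and RRM2 were highest at 2 to 5, at 1218 and 454 CPM, against 635.5 and 317 CPM in the lowest bin. MYC, the growth factor-induced transcription factor, was highest just under the threshold, at 89.96 ± 12.7 CPM at 10 to 20, and lowest at 40 or more, at 35.3 ± 12.4 CPM. MALAT1 was lowest in that same bin, at 1778 CPM, and higher at both ends, at 2896 and 2730 CPM.

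**Figure D3:**
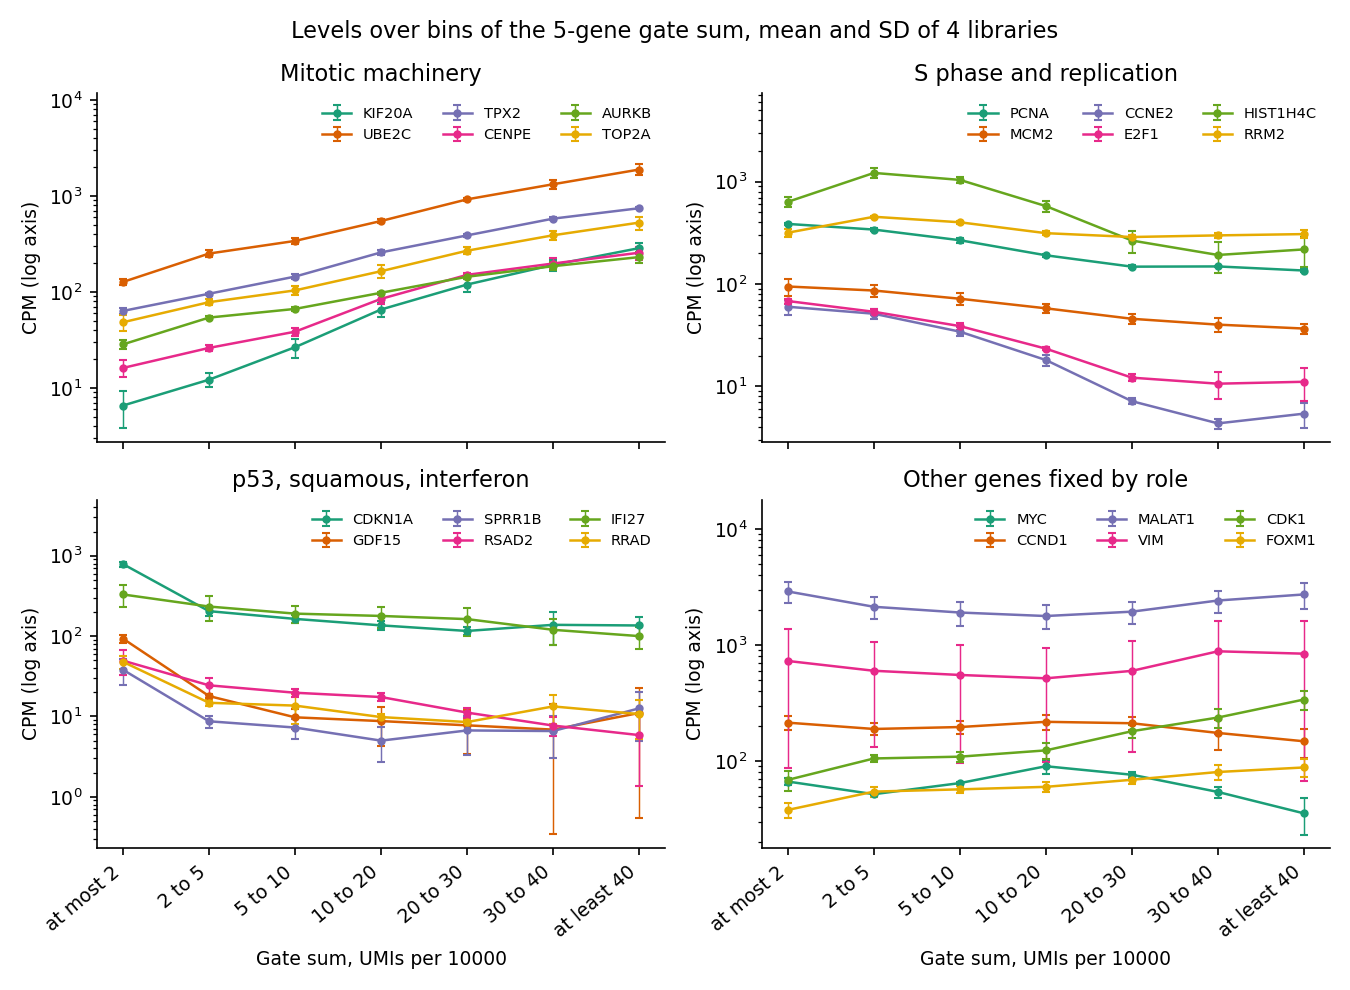
Mean level in CPM (log axis) over 7 bins of the gate sum, with SD bars over 4 libraries, whose lower end is cut at 5% of the mean where the SD reaches it. KIF20A and UBE2C climb through all bins, CCNE2 and E2F1 decline in steps, CDKN1A and GDF15 drop mostly between the first bin and the second, and HIST1H4C is highest at 2 to 5.

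Mitotic cells were also compared with the 524 non-mitotic cells richest in S phase transcripts. In that fit 18.2% of 13895 genes were higher and 21.8% lower. There 24 of 25 spindle genes were higher, with a median of 1.74, and 8 of 8 members of the cytokinesis list. The log2 difference in CDKN1A was -1.23 (adjusted p = 6.15e-10, edgeR) and that in MDM2 -0.37, while BTG2 no longer passed (adjusted p = 0.106, edgeR). Of the p53 targets 1 was higher and 11 lower there. S phase genes chose the comparator, so their values in this fit are not a result.

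Transcripts outside the cell cycle also differed. All 15 squamous differentiation genes tested, of 17 on the list, were lower in mitotic cells, with a median of -1.95. The 2 left out had too few counts. S100A8, a calcium-binding protein of stressed epithelium, was at 22.2, 22.4, 27.9 and 30.1 CPM in mitotic and 96.3, 60.9, 185 and 252 CPM in non-mitotic cells (5.06-fold lower). LCN2, a secreted protein that binds iron-carrying siderophores, was 3.85-fold lower. S100A7 was 26.9-fold lower, at 1.87 to 5.74 CPM against 14.7 to 144 CPM, with library 2 lowest among non-mitotic cells. All 18 interferon-stimulated genes were lower, with a median of -0.77. ISG15, a ubiquitin-like protein, was at 228 to 259 CPM in mitotic and 476 to 703 CPM in non-mitotic cells (2.29-fold lower), IFIT2 3.13-fold lower and RSAD2 (viperin) 4.55-fold lower. Within barcode groups the log2 difference in RSAD2 was -1.17, against -2.19 over libraries, and the median of the list -0.47. CCL5, a chemokine, was 16.99-fold lower, at 2.04 to 6.21 CPM against 21.8 to 94.2 CPM. Over the bins of the gate sum RSAD2 went from 49.4 CPM in the lowest to 24.4 in the next and 11.2 CPM at 20 to 30.

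Among 22 immediate early genes, which answer growth signals and handling within minutes to hours, 2 were higher and 17 lower, with a median of -0.40. FOS fell by 0.66 and ATF3 by 0.94. Of 12 nuclear-retained noncoding transcripts 0 were higher and 7 lower. NEAT1, the RNA that scaffolds paraspeckles, was at 132, 123, 117 and 114 CPM in mitotic and 289.6, 315, 299.9 and 302 CPM in non-mitotic cells (2.37-fold lower), and MALAT1, of nuclear speckles, fell by 0.41. Heat shock genes went up: of 12 chaperones 11 were higher and 1 lower, with a median of 0.60. HSPH1 was at 347, 354, 421 and 390.3 CPM against 203, 213, 255 and 223 CPM (1.77-fold), HSPA8 was 1.70-fold higher, and HSPB1, a small heat shock protein, fell by 0.31. Of 14 nuclear envelope genes 10 were higher and 2 lower, led by SUN2 (1.14), NUP37 (0.96) and LBR (0.95), the lamin B receptor. Of 13 mitochondrially encoded genes 8 were higher, none by 0.5, and in sums kept apart by barcode group 0 were higher and 3 lower. Of 18 ribosomal protein genes 8 were higher and 3 lower, with a median of 0.05, and in sums kept apart by barcode group 1 was higher and 7 lower, with a median of -0.06.

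PIF1, a DNA helicase that unwinds G-quadruplexes, had the largest rise of all 14414 genes. It was below the minimum of 20 CPM for naming a gene (mean 17.3 CPM), and is named here after its values were seen. PIF1 was at 32.8, 35.7, 30.7 and 35.4 CPM in mitotic and 0.78, 1.13, 1.48 and 0.39 CPM in non-mitotic cells, with no overlap, a log2 difference of 5.21 (SE 0.145, adjusted p = 4.82e-14, edgeR), or 37.0-fold. The non-mitotic sums held 7740580 to 11602691 gene UMIs, so its level there rests on few UMIs. The size of the fold and its rank as the largest rise are therefore uncertain. It climbed with the gate sum from 0.94 CPM in the lowest bin to 4.84 at 5 to 10, 15.8 at 10 to 20 and 51.6 ± 18.6 CPM at 40 or more. In singlets it was higher in mitotic cells of 12 of 12 barcode groups, at 27.5 to 40.9 CPM against 0 to 3.04 CPM. The other G-quadruplex helicases and binding proteins did not share this. Of 18 on the list 10 were higher and 3 lower, with a median of 0.18, and PIF1 was the 1 member higher by at least 0.5. DHX36, the main cytoplasmic G-quadruplex helicase, rose by 0.29, and nucleolin (NCL), which binds G-quadruplexes, by 0.40. BRIP1, the helicase partner of BRCA1, fell by 0.86 and BLM by 0.21.

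The share of mitotic cells differed among barcode groups. HTODemux, which calls the sample barcode of each cell, was run at a quantile of 0.99 and left 10233 cells with 1 barcode, of which 1863 (18.21%) were mitotic, against 17.31% of cells with several barcodes and 18.71% of cells with none. For cells with several barcodes the libraries differed in direction: 13.97% were mitotic in library 1, where singlets were at 18%, and 21.56% in library 4, where singlets were at 17.39%. The share was highest in SBO01 (375 of 1622 cells, 23.1%, exact 95% binomial interval 21.1 to 25.3%), SBO12 (273 of 1191, 22.9%, 20.6 to 25.4%) and SBO05 (395 of 1726, 22.9%, 20.9 to 24.9%), whose intervals overlap. It was lowest in SBO03 (84 of 748, 11.2%, 9.06 to 13.7%), SBO04 (37 of 303, 12.2%) and SBO06 (119 of 961, 12.4%), and SBO02 was at 14.1% of 469 cells. In the second pool SBO07, SBO08, SBO10, SBO09 and SBO11 lay at 15.05, 14.6, 15.02, 17.65 and 18.6%, with overlapping intervals. The 2 libraries of a pool gave the same upper groups: SBO01 was at 22.8 and 23.6%, SBO05 at 21.7 and 24.6% and SBO12 at 23.8 and 21.8%. SBO02 differed most between its 2 libraries, at 11.1% in library 1 and 18.2% in library 2. Membership of a group depended on how barcodes were called. When a cell was instead given its top barcode, at 10 or more UMIs and 3 times the next, SBO12 held 96 cells in place of 1191, with 20.8% mitotic (13.2 to 30.3%), and SBO08 held 2709 in place of 810, with 17.9% mitotic. SBO12 was the top barcode in 5.43% of 5304 and 5.14% of 4125 cells within the gene and mitochondrial limits of libraries 3 and 4. HTODemux gave it 663 and 528 cells there, so most cells of this group had another barcode on top. Whether they come from 1 culture was not tested, and the share of SBO12 is uncertain for this reason. Each other group was taken as 1 culture. The intervals cover counting error and not errors of calling, and the groups were not tested against each other.

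**Figure D4:**
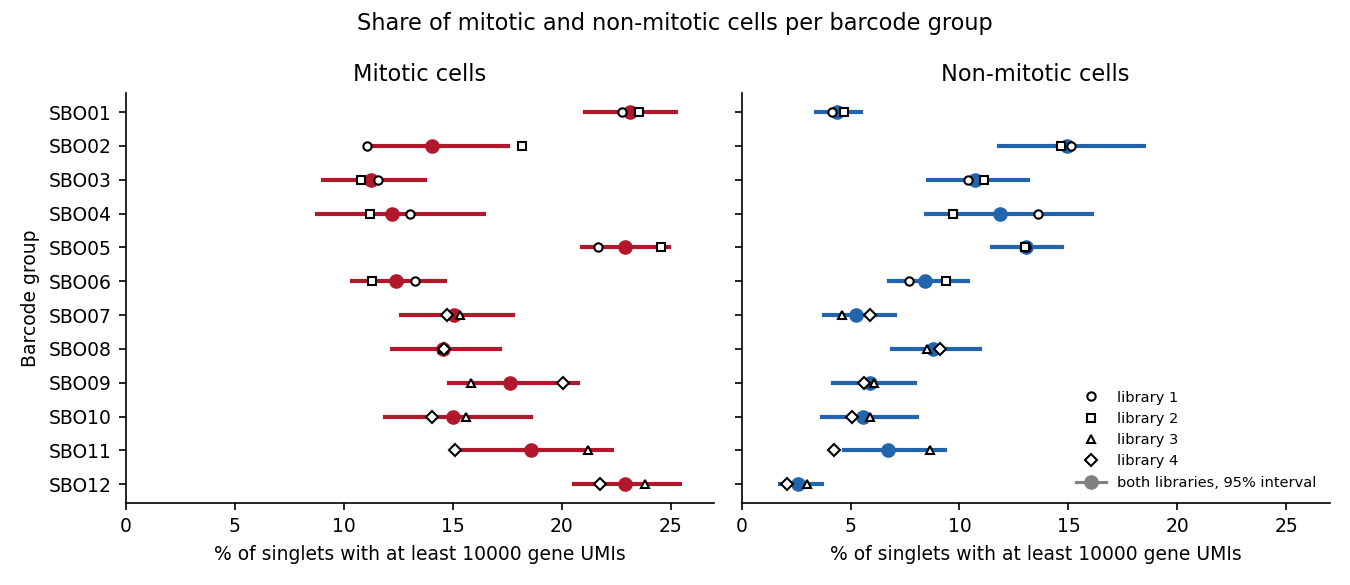
Share of mitotic (left) and non-mitotic (right) cells among singlets with at least 10000 gene UMIs in each of 12 barcode groups, with exact 95% binomial intervals and an open symbol per library. SBO01, SBO05 and SBO12 lie at 22.9 to 23.1% mitotic, with non-mitotic shares of 4.38, 13.04 and 2.60%. The non-mitotic share of SBO05 is 7.53% with a floor of 20000 UMIs. Most cells called SBO12 had another barcode on top.

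The share of non-mitotic cells did not simply mirror it. It was 4.38% in SBO01 and 2.60% in SBO12 (31 of 1191 cells, 1.78 to 3.67%), but 13.04% in SBO05 (225 of 1726, 11.5 to 14.7%). SBO02 had the highest, at 14.9% (70 of 469 cells, 11.8 to 18.5%). Cells of SBO05 were the shallowest, with a median of 21760 gene UMIs, against 26050 to 28460 in the other groups of its pool and 33440 to 35740 in the second pool. In cells thinned to 10000 UMIs the mitotic share was 23.3% in SBO05, 24.4% in SBO01 and 23.9% in SBO12, and it was lowest in SBO04, at 11.55%. Non-mitotic shares moved more with depth. In the thinned cells SBO05 was at 18.7% non-mitotic, against 23.9% in SBO02 and 19.25% in SBO03. With a floor of 20000 UMIs its non-mitotic share was 7.53% (5.41% in library 1 and 9.47% in library 2), below SBO02 (12.3%), SBO04 (10.7%) and SBO03 (9.14%), while its mitotic share was 24.8%. At a stricter gate of 30 per 10000 SBO05 had the highest mitotic share, 10.5%, against 1.40 to 6.29% in the other groups.

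Since the 2 classes drew on the barcode groups in different proportions, sums were also made within each library and barcode group, for the 22 pairs with at least 10 cells of each class. With these pairs as blocks 8654 genes were tested, of which 2074 (24.0%) were higher and 2589 (29.9%) lower. The 22 pairs came from 12 barcode groups, most of them entered from both libraries of their pool. The p-values of this fit measure spread over pairs, which are not independent cultures. All 25 spindle genes were higher again, with a median of 2.07, and 33 of 33 S phase genes lower. Epithelial and mesenchymal genes depended more on the groups. Of 18 epithelial genes 2 were higher and 13 lower over libraries (median -0.31), and 1 was higher and 9 lower of 17 within barcode groups (median -0.18). KRT19 fell by 0.71 over libraries and by 0.57 within groups, and CDH1 by 0.57 and 0.48. Of 18 mesenchymal genes 1 was higher and 12 lower (median -0.45), and within groups 0 were higher and 6 lower of 10 tested. FN1, fibronectin, was at 977, 1069, 860 and 887 CPM in mitotic and 1953, 2165, 1723 and 1883 CPM in non-mitotic cells, 1.95-fold lower, and fell by 0.83 within groups. VIM, vimentin, did not pass over libraries (0.06, adjusted p = 0.336, edgeR) and was -0.41 within groups (adjusted p = 0.0313, edgeR). KRT5, a basal keratin, was 0.42 higher over libraries and -0.17 within groups (adjusted p = 0.0105, edgeR), a change of sign. Of 14 basal genes 6 were higher and 6 lower over libraries, and 0 higher and 12 lower of 13 within groups. Squamous genes were lower within groups in 10 of 10 tested and interferon genes in 14 of 18.

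**Figure D5:**
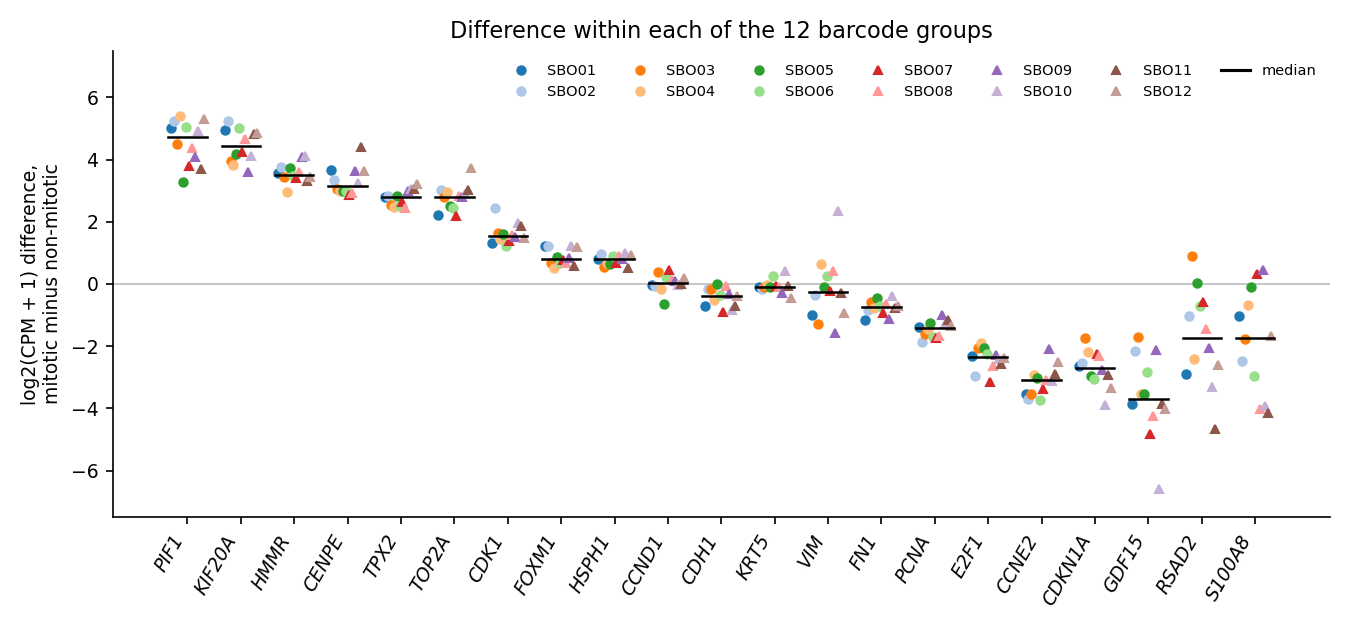
Difference in log2(CPM + 1) between mitotic and non-mitotic singlets within each of 12 barcode groups (circles for libraries 1 and 2, triangles for libraries 3 and 4), with a line at the median. KIF20A lies between 3.60 and 5.25 and CCNE2 between -3.73 and -2.08 in every group, while VIM runs from -1.57 to 2.35 and S100A8 from -4.15 to 0.45. The groups held from 26 (SBO10) to 225 (SBO05) non-mitotic singlets.

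Single barcode groups are described without a test. Most cells called SBO12 had another barcode on top, so its values may not be those of a single culture. KIF20A was higher in mitotic cells in 12 of 12 groups, by 3.60 (SBO09) to 5.25 (SBO02) in log2(CPM + 1), and TPX2 by 2.45 (SBO08) to 3.23 (SBO12). CDK1, FOXM1, CDKN1B and HSPH1 were also higher in 12 of 12. Other cell cycle genes differed in sign between groups: CDKN2C was higher in 10 of 12, CCND1 in 6, RRM2 in 5 and RBL1 in 1. CDKN1A was lower in 12 of 12, by 1.74 (SBO03) to 3.88 (SBO10), and its level in non-mitotic cells ran from 426 CPM in SBO07 to 1344 CPM in SBO12. Mitotic cells of SBO05 were highest of the 12 groups in CDK1 (303 CPM), CENPF (532 CPM), TOP2A (432 CPM) and KIF20A (243 CPM). They were lowest in UBE2C (995 CPM), CDKN1A (79.1 CPM) and CCND1 (63.9 CPM, against a median of 245.5). The groups were not compared at equal gate sums. In SBO05 181 of 395 mitotic cells reached 30 per 10000, against 26 of 66 in SBO02 and 11 of 118 in SBO07. Over all cells CDK1, CENPF, TOP2A and KIF20A climbed with the gate sum, as did UBE2C, which was lowest in SBO05. Whether SBO05 differs from the other groups at equal gate sums was not tested. Among non-mitotic cells SBO05 was also highest in CDK1 (99.8 CPM), CENPF (71.5 CPM), TOP2A (75.75 CPM) and KIF20A (12.6 CPM), and lowest in CCND1 (99.6 CPM). UBE2C and CDKN1A were lowest there in SBO11 (77.8 CPM) and SBO07 (426 CPM). Among mitotic cells TPX2 was highest in SBO02 (542 CPM). VIM was at 3223 CPM in mitotic and 3414 CPM in non-mitotic cells of SBO05, against medians of 232.5 and 322.5 CPM over the 12 groups, and KRT5 at 52.5 and 56.8 CPM against 583.5 and 579 CPM. Within groups the difference in VIM ran from -1.57 (SBO09) to 2.35 (SBO10), and that in FN1 from -1.17 to -0.38. SBO10 held 26 non-mitotic singlets, the fewest of the groups, with VIM at 40.2 CPM, and SBO09 held 39. The minimum of 10 cells per class was not applied to these values. RSAD2 was lower in mitotic cells in 10 of 12 groups, and from 73.0 CPM in SBO03 to 0.61 CPM in SBO12 among mitotic cells. S100A7 rested on few groups: its non-mitotic level was 616 CPM in SBO06 and 3.89 CPM at the median.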

How the data were processed

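The deposited matrices hold UMI counts per gene and cell, and per sample barcode, with no normalization, made by the authors with bcl2fastq 2.20.0.422, Cell Ranger 6.0.2 and the hg38 genome per the submitters' processing notes, which also name Seurat 4.1.0. Barcodes were called here with HTODemux (Seurat 5.3.0). Cells were gated on UMIs of the 5 genes, and UMIs were summed per library and class. These sums were tested with edgeR 4.0.16 in R 4.3.3 (filterByExpr, TMM factors, library as a block, Benjamini-Hochberg adjustment over all genes, false discovery rate 0.05). The 5 gate genes were left out of the test and kept in the library totals. On simulated sums of 14296 genes the script called 100% of the genes changed by 0.5 or 1 on the log2 scale and 0.0709% of the rest. The simulation changed 200 genes, all of at least 20 CPM, with no differences between libraries and less spread than the data. Its rates therefore do not give the power or error of the real fit. Differences per library or barcode group are on log2(CPM + 1).

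Genes were named by rule: the 12 largest rises and 12 largest falls among genes with at least 20 CPM and the same sign in all 4 libraries, up to 4 genes per list, and genes fixed by role. Other list members were named after their values were seen. The members and lists were chosen with earlier results of these data known. Alternatives were DESeq2 1.42.0, no filter, no library block, each library left out, other gates, singlets only, thinned cells, cells matched on UMI totals, sums per barcode group, an S phase rich comparator and a stricter mitochondrial limit. For the shares of cells they were thinned cells, other gates, a top barcode rule in place of HTODemux and a floor of 20000 UMIs. Sums per barcode group without SBO05 were added after seeing the data. Free RNA was not removed, and intervals cover counting error only. The result for 1 named gene is not reported here.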

Additional observations from a re-analysis of the deposited data

Results flagged for a closer look

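For each named gene and cell measure with a value per library, the 4 libraries were screened for 1 that lay far from the rest, meaning that its gap to the nearest other value, as a share of the whole range, exceeded Dixon's 95% critical value. Of 120 values 4 were picked out, and chance alone picks about 1 in 20. All are differences in log2(CPM + 1) between mitotic and non-mitotic cells. CENPF was lower in library 1 (2.719) than in the others (3.038 to 3.083). RRAD was at -1.968 in library 1 and -2.236 to -2.28 elsewhere. KIF23 was at 2.693 in library 3 and 2.469 to 2.506 elsewhere. CDKN1B was at 0.613 in library 2 and 0.7566 to 0.7689 elsewhere. Each of the 4 kept its sign in all 4 libraries.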

How the results depend on the processing

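The library block, used because both classes of a library share its preparation, raised the counts: with no replicate block 3016 genes were higher and 2883 lower, of which 3015 and 2883 were called with it. Leaving out each library in turn gave 3825 to 3963 higher and 3730 to 3956 lower. Sums per barcode group gave 2074 and 2589, and 2019 and 2423 without SBO05. Of the main calls tested per barcode group, 53.7% of 3851 higher genes were called higher again, and 21 were called lower. Of 2094 lower genes 92.22% were called lower again, and 0 higher. Against S phase rich cells 2532 were higher and 3032 lower. There 56.12% of 4268 higher and 63.8% of 4064 lower main calls were kept, and 12 and 8 were called the other way. DESeq2 called 3215 and 3135.

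Of the named genes, KRT5, CCND1, MYC and VIM changed sign. KRT5 was at -0.1658 in sums per barcode group and -0.1701 without SBO05. CCND1 was at 0.01641 with no filter, 0.03776 with the gate at 15, 0.07734 with non-mitotic cells up to 5, 0.006086 in singlets, 0.008724 per barcode group and 0.08043 without SBO05. MYC was at -0.3752 with the gate at 30, -0.1338 per barcode group and -0.08524 without SBO05. VIM was at -0.03454 with no replicate block, -0.01817 without library 4 (-0.01817 to 0.1424 over the libraries left out), -0.05489 with the gate at 15, -0.2129 in singlets, -0.02459 in thinned cells, -0.4131 per barcode group and -0.4538 without SBO05. The causes were not tested.

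The highest share of mitotic cells was 35.45% (SBO01) with the gate at 15 and 10.49% (SBO05) at 30, and the lowest 20.13% (SBO04) and 1.403% (SBO07). In singlets the difference in median barcode UMIs was -65.12, against 65.38 in all cells. SBO02 was at 18.18% without library 1, and SBO11 at 15.09% without library 3.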
